A study of Rattus norvegicus with 10 samples.

Results

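The B cell transcripts *Ms4a1*, *Cr2*, *Blk*, *Bank1*, *Cd22* and *Cd79b* were followed library by library in sorted rat splenic M2 macrophages. They were chosen by name, as genes whose products belong to B cells rather than to macrophages, and they are 6 of the 9003 genes in the deposited table. Each value is a TMM-normalized CPM, that is, the reads on a gene scaled to library size after the authors' adjustment between libraries. CPM is not divided by gene length, so levels were compared between libraries and not between genes.

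All cells came from WKY/NCrj rats and were enriched for CD11b/c before being sorted as M2 macrophages. The study's methods name female rats for the nephritis model and do not state the sex of the control rats separately. Control macrophages (n = 2) came from rats in the physiological condition, and GN macrophages (n = 2) came from rats given the monoclonal antibody TF78 against the glomerular basement membrane, with no cell therapy. EV+ (n = 3) and EV- (n = 3) macrophages both came from TF78-treated rats that also received human adipose-derived stem cells (ASCs) intravenously. The ASCs carried the membrane dye DiD, and macrophages with DiD, taken as recipients of ASC extracellular vesicles, were sorted as EV+ and those without it as EV-. An EV- cell is therefore a cell of a treated rat in which the dye was not detected, and GN is the group without ASCs. The study's methods give an age range in weeks for rats of the nephritis model, matched within treatment experiments, and the labels give no age for these libraries. It is not stated whether a rat gave both the EV+ and the EV- library that carry its number.

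B cells recognize antigen with a surface immunoglobulin that signals through the CD79A and CD79B chains. Src-family kinases such as Blk and Lyn start that signal, and inhibitory receptors such as CD22 and CD72 raise its threshold. The spleen is rich in B cells, which lie in follicles and in the marginal zone next to macrophages.

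The libraries held between 19270515 and 26617093 reads on the genes of the table, and 3 reads, taken as the limit of detection, were worth between 0.113 and 0.153 CPM. The limit covers counting error only. The macrophage genes *Csf1r*, the receptor for the macrophage growth factor (5800 to 8155 CPM), and *Lyz2*, a lysozyme (15325 to 20176 CPM), were high in all 10 libraries. The M2 receptors *Cd163* and *Mrc1*, which were looked up after the values were seen, lay between 0 and 1.81 CPM each, so the M2 part of the label was not visible in these transcripts. EV- replicate 1 stood apart from the other libraries. Its summed level of 22 NK and T cell genes was 1005 CPM against 150 and 82 CPM in EV- replicates 2 and 3 and between 36.3 and 62 CPM in the other 7 libraries. *Cd8a* and *Cd8b* were left out of this sum after their values were seen, since they were high in every library (*Cd8a* 199 to 333 CPM, *Cd8b* 56.5 to 78 CPM). The differences of the 6 genes between EV+ and EV- are therefore also given without that library.

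The comparison of EV+ with EV- macrophages asked how transcripts differed between dye-positive and dye-negative cells of treated rats. *Ms4a1* and *Blk* were higher in every EV+ library than in every EV- library, *Cr2* had the highest value in an EV+ library but overlapped, and *Bank1*, *Cd22* and *Cd79b* overlapped around close means. None of the 6 differences passed the threshold of a Benjamini-Hochberg adjusted p under 0.1 in limma, in edgeR's quasi-likelihood or likelihood-ratio test, or in DESeq2. In each of these 4 tests *Blk* had an unadjusted p under 0.05, beside 411 of all 9003 genes in limma. *Ms4a1* is left out of this count because of how the gene entered the table. In this comparison limma called 0.0222% of all genes. The share of all genes that the edgeR tests and DESeq2 called was not counted in any comparison. Their calls below are therefore descriptions. For 4.25% of all genes (383), every EV+ library lay above every EV- library. The table was filtered by the authors on a maximum of at least 1 CPM in any library, and *Ms4a1* passed only through the EV+ libraries, since its highest value elsewhere was 0.778 CPM. A gene kept in that way had to have its maximum in EV+, so its level there is given as a description, without p-values, and no count over the 6 genes is used as support. The other 5 genes reached 1 CPM outside EV+ as well.

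*Ms4a1* encodes CD20, a membrane protein of mature B cells that takes part in calcium entry after receptor engagement. It measured 1.72, 1.60 and 1.52 CPM in EV+ replicates 1 to 3 and 0.778, 0.153 and 0.739 CPM in EV- replicates 1 to 3. These values rest on 44, 38 and 34 reads in EV+ and on 16, 3 and 19 reads in EV-, the second of which is at the limit of detection. The GN libraries held 0.434 and 0.527 CPM and the control libraries 0.385 and 0.454 CPM. All 3 EV+ libraries thus lay above the other 7, whereas control, GN and EV- overlapped. The means were 1.61 ± 0.102 CPM (SD, n = 3) in EV+ and 0.557 ± 0.350 CPM (SD, n = 3) in EV-, a ratio of 2.9. On the log2(CPM + 1) scale, which understates changes of low genes, the fitted difference was 0.77 (SE 0.249), and edgeR's quasi-likelihood fit on the recovered reads gave a log2 fold change of 1.51 for *Ms4a1*. Without EV- replicate 1 the limma difference was 0.88. These values describe the libraries only, since the filter kept *Ms4a1* for its EV+ levels. Between EV+ and EV- the summed NK and T cell genes ran opposite to *Ms4a1*, with higher levels in all 3 EV- libraries. This did not hold over all groups. In control and GN the sum was 37.9 to 59.2 CPM, as low as in EV+, while *Ms4a1* was also low. The part of the NK and T cell genes in the result was not tested. In bulk libraries, fewer cells of a type and less RNA per cell cannot be told apart.

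*Blk* encodes a Src-family kinase that phosphorylates the CD79 chains. EV+ replicates 1 to 3 held 1.02, 1.39 and 1.16 CPM, and EV- replicates 1 to 3 held 0.486, 0.561 and 0.0389 CPM. The EV- values correspond to 10, 11 and 1 read, and the last is under the limit of detection, whereas the EV+ values correspond to 26, 33 and 26 reads. The GN libraries measured 0.907 and 1.43 CPM for *Blk*, and the control libraries 0.847 and 1.11 CPM. The EV- libraries therefore lay below all other libraries, while EV+, GN and control overlapped, with means of 1.19 ± 0.188 CPM (SD, n = 3) in EV+, 1.17 ± 0.371 CPM (SD, n = 2) in GN and 0.981 ± 0.188 CPM (SD, n = 2) in control. In EV- the mean was 0.362 ± 0.282 CPM (SD, n = 3), and the ratio of EV+ to EV- means was 3.28. The difference on the log2(CPM + 1) scale was 0.70 (SE 0.252, 95% interval 0.16 to 1.24, unadjusted p = 0.0145, limma adjusted p = 0.976), and the quasi-likelihood fit gave 1.74 for *Blk* (adjusted p = 0.998). It was 0.78 without EV- replicate 1 (adjusted p = 1.0) and 0.52 without EV- replicate 3, the library with 1 read (adjusted p = 1.0).

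*Cr2* encodes CD21, a complement receptor that binds C3d. It is also a marker of follicular dendritic cells. The EV+ libraries held 1.13, 1.01 and 3.12 CPM (29, 24 and 70 reads) and the EV- libraries 0.0972, 0.561 and 1.13 CPM (2, 11 and 29 reads). Control replicate 1 reached 1.19 CPM and control replicate 2 only 0.0825 CPM (2 reads), and in the GN libraries it measured 0.552 and 0.377 CPM. EV+ replicate 3 was the highest library, and the other EV+ libraries lay within the range of the control and EV- libraries. The limma difference between EV+ and EV- was 0.76 for *Cr2* (SE 0.359, 95% interval -0.01 to 1.53, adjusted p = 1.0), which came to 0.43 once EV+ replicate 3 was left out (adjusted p = 1.0). Without EV- replicate 1 it was 0.52.

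*Bank1* encodes a scaffold protein that links Lyn to calcium release after receptor engagement. Its EV+ values were 18.6, 14.3 and 19.6 CPM and its EV- values 16.6, 14.6 and 16.5 CPM. The groups overlapped, with EV+ replicate 2 below all 3 EV- libraries, and the limma difference was 0.12 (SE 0.154, 95% interval -0.21 to 0.45, adjusted p = 1.0) and 0.15 without EV- replicate 1.

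*Cd22* encodes a sialic acid-binding receptor that recruits the phosphatase encoded by *Ptpn6* and dampens B cell receptor signals. It was measured at 310, 389 and 311 CPM in EV+ and at 283, 373 and 304 CPM in EV-, on 5828 to 9231 reads in the 10 libraries. In each pair of libraries with the same number EV+ was the higher (3 of 3), but the spread between numbers exceeded this gap. The limma difference in *Cd22* was 0.07 (SE 0.114, 95% interval -0.17 to 0.32, adjusted p = 1.0), or -0.01 without EV- replicate 1.

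*Cd79b* encodes a signalling chain of the receptor itself. Its EV+ values of 66.0, 69.7 and 71.1 CPM fell within its EV- values of 62.4, 73.0 and 71.7 CPM, and the limma difference was -0.00 (SE 0.143, 95% interval -0.31 to 0.31, adjusted p = 1.0). It came to -0.07 without EV- replicate 1. With *Cd22* and *Bank1*, it thus bounded the log2 difference between EV+ and EV- more narrowly than *Blk* and *Cr2*, which had at most 70 reads in a library.

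**Figure D1:**
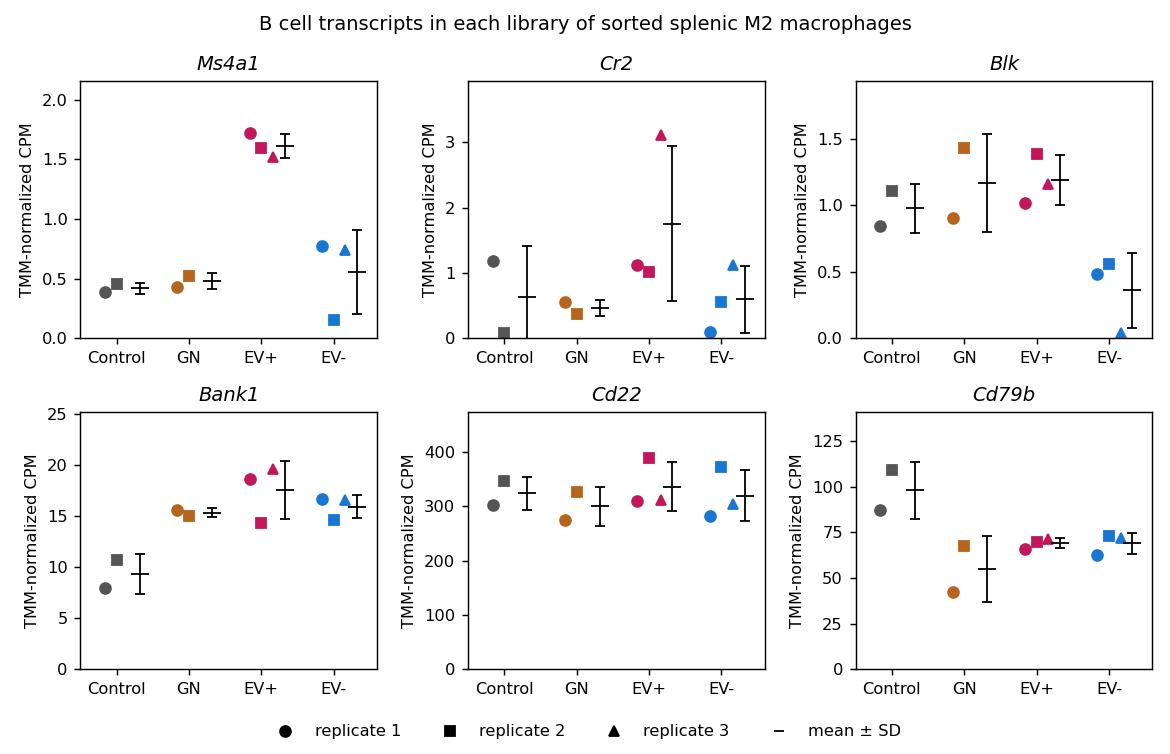
TMM-normalized CPM (vertical axes, linear and starting at 0) of the 6 B cell transcripts in each library, by group (horizontal axes). Symbols give the replicate number and bars the group mean ± SD, cut at 0 for *Cr2* in control. *Ms4a1* was at 1.52 to 1.72 CPM in EV+ and at most 0.778 CPM elsewhere, *Blk* was at most 0.561 CPM in EV- and at least 0.847 CPM elsewhere, and *Cd79b* was at 87.0 and 109 CPM in control and at most 73.0 CPM elsewhere.

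The comparison of GN with control macrophages asked what nephritis alone changed. *Cd79b* was lower in GN, and *Bank1* had a difference in the opposite direction that did not pass the threshold. For the remaining 4 genes the libraries of the groups overlapped. With 2 libraries in each group, separation was common among listed genes. Of the 14 other B cell genes described below, GN lay wholly above control for 3 and wholly below it for 5. The share of all genes that separated was not counted. limma called 1 of the 6 genes in this comparison, where it called 1.75% of all genes.

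*Cd79b* fell from 87.0 and 109 CPM in control to 42.1 and 67.6 CPM in GN, so that the groups did not overlap. The means were 97.9 ± 15.5 CPM (SD, n = 2) and 54.9 ± 18.0 CPM (SD, n = 2), and the log2 difference was -0.85 (SE 0.175, 95% interval -1.23 to -0.48, limma adjusted p = 0.0331). The adjusted p of *Cd79b* was 0.0532 in edgeR's quasi-likelihood test, but 0.169 in limma without the intensity trend and 0.105 when only control and GN were fitted. Without control replicate 2 the difference was -0.69 (adjusted p = 0.245) and without GN replicate 1, the lowest library, it was -0.52 (adjusted p = 0.272). In these fits the lone library of the group is assumed to vary like the other groups. The EV+ and EV- libraries, also from nephritic rats, held 62.4 to 73.0 CPM and lay below both control libraries.

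*Bank1* measured 7.90 and 10.7 CPM in the control libraries against 15.6 and 15.0 CPM in the GN libraries, on 205 and 259 against 395 and 397 reads. The groups did not overlap, and the GN to control ratio of means was 1.64. The log2 difference was 0.67 (SE 0.189, 95% interval 0.27 to 1.08, limma adjusted p = 0.139). It passed the threshold in edgeR's likelihood-ratio test (adjusted p = 0.0436), in DESeq2 (0.057) and in limma without EV+ replicate 2 (0.0869), and the adjusted p of *Bank1* ranged up to 0.201 over the alternatives. All 6 EV+ and EV- libraries also held more *Bank1* than either control library, at 14.3 to 19.6 CPM.

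Of the others, *Cd22* measured 303 and 346 CPM in the control libraries against 275 and 326 CPM in the GN libraries (log2 difference -0.11, 95% interval -0.41 to 0.19, limma adjusted p = 0.851). *Ms4a1*, *Cr2* and *Blk* differed between GN and control by 0.06, -0.08 and 0.12 on the log2(CPM + 1) scale, with 95% intervals from -1.02 to 0.87 at the widest, for *Cr2*. With intervals this wide, on 2 to 38 reads per library, moderate differences in these 3 genes were not detectable. Other transcripts moved with the same groups. Macrophage genes summed to 25815 and 26047 CPM in control and to 30850 and 31597 CPM for GN, and 2 of the 16 were called higher in GN by limma and are named for that, *Cd14*, an endotoxin coreceptor, and *Itgam*, an integrin chain of CD11b. The hemoglobin genes *Hbb* and *Hba1* together rose from 1.19 and 1.61 CPM to 7.26 and 6.44 CPM. The part of these transcripts in the *Cd79b* and *Bank1* values was not tested.

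Both EV groups were also set against GN, and these comparisons share the GN libraries with each other and with GN against control. limma called 0 of the 6 genes in EV+ against GN, where 0.122% of all genes were called, and 0 in EV- against GN, where 0.378% were. In EV+ against GN, *Cd79b* had an unadjusted p of 0.0402 in limma, where 642 of all 9003 genes were under 0.05. In EV- against GN, *Cd79b* (0.0401) and *Blk* (0.0293) were under 0.05 in limma, beside 707 of all genes. edgeR's quasi-likelihood and likelihood-ratio tests and DESeq2 called none in either, although DESeq2 gave no adjusted p for *Ms4a1*, *Cr2* and *Blk* in EV+ against GN. *Ms4a1* differed from GN by 0.05 in EV- (95% interval -0.55 to 0.64, adjusted p = 0.988). Its difference of 0.82 between EV+ and GN is given without a test, because the gene was in the table only through its EV+ libraries. *Blk* differed by 0.02 in EV+ (-0.58 to 0.62, adjusted p = 0.996) and by -0.68 in EV- (-1.29 to -0.08, adjusted p = 0.562). *Cd79b* differed by 0.36 in both EV groups (0.02 to 0.70 in each, adjusted p = 0.686 in EV+ and 0.599 in EV-). All are limma values on the log2(CPM + 1) scale. The EV- libraries thus lay below those of GN for *Blk*, and the share of all genes with such a gap was not counted.

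Ordered by group mean, *Ms4a1* ran from control (0.419 CPM) through GN (0.481 CPM) and EV- (0.557 CPM) to EV+, and only at the last step did neighbouring groups not overlap. *Blk* ran from EV- through control and GN to EV+, with no overlap only between EV- and control. *Cr2* ran from GN (0.464 CPM) through EV- (0.595 CPM) and control (0.638 CPM) to EV+ (1.76 CPM), and all neighbours in this order overlapped. *Bank1* ran from control (9.29 CPM) through GN (15.3 CPM) and EV- (15.9 CPM) to EV+ (17.5 CPM), with only control apart. *Cd22* means lay between 300 CPM in GN and 336 CPM in EV+, and all neighbours overlapped. *Cd79b* ran from GN (54.9 CPM) through EV+ (68.9 CPM) and EV- (69.1 CPM) to control (97.9 CPM), with only control apart. How many of all genes show such gaps was not counted, so these orders are descriptions.

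The 6 genes did not follow each other closely over the 10 libraries. Pearson correlations of their log2 values ranged from -0.56 for *Bank1* and *Cd79b* to 0.55 for *Ms4a1* and *Cr2*, as a description over libraries that share their groups. *Ms4a1* and *Cd22* correlated at 0.04, and *Ms4a1* and *Cd79b* at -0.11. *Cd22* and *Cd79b* correlated at 0.49. The 8 genes of the table most like the mean of the 6 standardized profiles (mean of at least 1 CPM) were *Cyp4v3* (r = 0.92), *Prpf31* (0.84), *Trmt11*, *Amer1* and *Oat* (0.83 each), *Rnpepl1* (0.82), and *Zfp707* and *Dcaf7* (0.81 each). These were picked from 9003 genes for their likeness over 10 libraries. *Cyp4v3*, a cytochrome P450, averaged 150 CPM in control, 157 in GN, 185 in EV+ and 157 in EV-. No gene of the B cell lists was among the 8.

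Of 30 other B cell genes listed, 14 were in the table, and *Cd79a*, *Pax5*, *Ebf1*, the immunoglobulin genes and the rest were not analysed here. limma called 0 of the 14 in EV+ against EV-, where 3 had an unadjusted p under 0.05. edgeR's quasi-likelihood test also called 0, and its likelihood-ratio test and DESeq2 each called 1, *Cd72*. The median log2 difference of the 14 was 0.05, beside -0.01 over all genes. *Cd72*, which encodes an inhibitory coreceptor of B cells, was higher in every EV+ library than in every EV- library. It measured 19.7, 27.6 and 26.5 CPM in EV+ and 14.3, 16.5 and 14.0 CPM in EV-, beside 25.2 and 23.1 CPM in GN and 31.7 and 37.2 CPM in control. EV- libraries were thus the lowest and control libraries the highest. Its difference between EV+ and EV- was 0.68 (SE 0.141, 95% interval 0.37 to 0.98, limma adjusted p = 0.247), and the adjusted p of *Cd72* ranged from 0.00242 to 0.687 over the alternatives.

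Of the 14 genes, *Cd24*, singled out after its values were seen, ran the other way (-1.28, limma adjusted p = 0.962), with 7.68 CPM in EV- replicate 1 against at most 2.55 CPM in the other 9 libraries. *Cd24* is a surface glycoprotein carried by several blood lineages besides B cells.

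The other B cell genes with the highest means had small estimated differences between EV+ and EV-. *Cd180*, a Toll-like receptor homologue, and *Cd37*, a tetraspanin, had limma differences of 0.11 (SE 0.0649) and -0.01 (SE 0.0793). *Pou2f2*, *Swap70*, *Ralgps2*, *Stap1* and *Spib* differed by 0.05, 0.14, -0.13, 0.24 and 0.05 (adjusted p = 1.0 in limma for each of these 7 genes). *Cd180* stayed between 438 and 514 CPM in the 10 libraries. In GN against control limma called 0 of the 14, with 3 at an unadjusted p under 0.05, beside 933 of all 9003 genes. Both edgeR tests called 0, and DESeq2 called *Ralgps2* alone (log2 fold change -0.32).

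**Figure D2:**
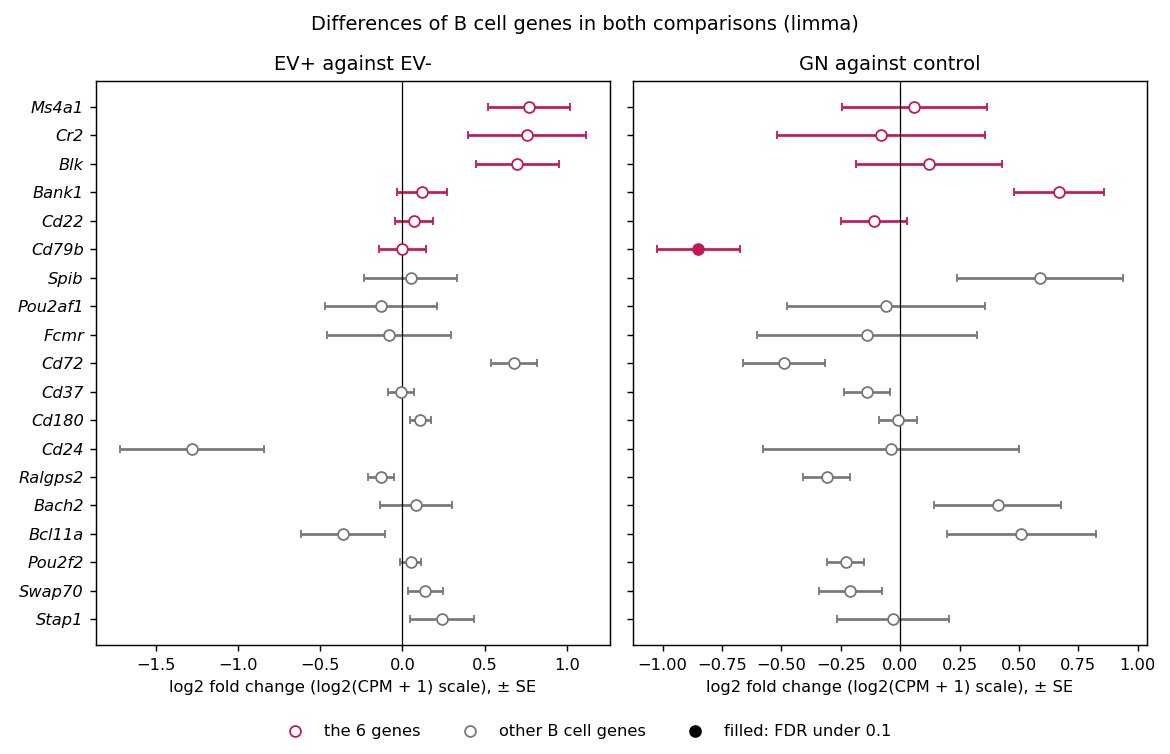
limma log2 differences (horizontal axes, log2(CPM + 1) scale, bars ± SE) of the 6 genes and of other B cell genes in EV+ against EV- (left) and GN against control (right). Filled points have an adjusted p under 0.1, and *Cd79b* at -0.85 in GN against control is the only such point. In EV+ against EV-, *Ms4a1*, *Cr2*, *Blk* and *Cd72* lay between 0.68 and 0.77, of which *Ms4a1* was in the table only through its EV+ libraries.

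Genes that carry the B cell receptor signal but are used by many leukocytes were listed apart, and 23 of 26 were in the table. limma called 0 of the 23 in EV+ against EV-, as did the edgeR tests and DESeq2, with 2 at an unadjusted p under 0.05 in limma. Their median difference was 0.04. Those with the highest means were *Rac2*, a small GTPase (0.03, SE 0.058), *Ptpn6*, the phosphatase recruited by CD22 (-0.03, SE 0.0613), *Lyn*, a Src-family kinase (0.06, SE 0.0626), and *Prkcb*, a protein kinase C (0.05, SE 0.075). In GN against control 1 of the 23 rose, *Fcgr2b*, the inhibitory Fc receptor of B cells and myeloid cells, which is named because of that call. It measured 0.770 and 0.949 CPM in the control libraries against 5.84 and 4.29 CPM in the GN libraries, a log2 difference of 1.70 (limma adjusted p = 0.0137). Its direction was opposite to that of *Cd79b*.

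Plasma cell genes, 9 of 10 listed, gave 0 calls in EV+ against EV- in limma with 2 at an unadjusted p under 0.05. Their median log2 difference was -0.19, beside -0.01 over all genes, and 8 of the 9 estimates were negative. *Mzb1*, named after its values were seen, differed by -0.84 (SE 0.354) and had 0 reads in EV+ replicate 2. The most abundant plasma cell genes *Xbp1*, *Prdm1*, *Fkbp11* and *Tent5c* differed by -0.11, -0.15, -0.03 and -0.71 (limma adjusted p = 1.0 each). *Tnfrsf17*, a survival receptor of plasma cells that was named after its values were seen, was called lower in EV+ by edgeR's likelihood-ratio test alone. It was listed at 0 in all 3 EV+ libraries and at 1.07, 0.102 and 0.545 CPM in EV-. In GN against control 0 of the 9 plasma cell genes were called by limma and 0 had an unadjusted p under 0.05.

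Transcripts of other cells that the sort could have held were read from lists too. NK and T cell genes, 24 of 29 listed, had a median log2 difference of -1.39 between EV+ and EV-, and 23 of the 24 estimates were negative. limma called 0 of them, with 16 at an unadjusted p under 0.05, and the quasi-likelihood test called 0, whereas the likelihood-ratio test called 11 and DESeq2 called 10, all lower in EV+. How many of all genes the likelihood-ratio test and DESeq2 called was not counted, so their counts have no background beside them. *Prf1*, which encodes perforin, differed by -2.66 (SE 0.652, limma adjusted p = 0.521), and *Ccl5*, a chemokine of NK and T cells, by -2.33 (SE 0.64, limma adjusted p = 0.733). *Cd3e*, a T cell receptor chain named after its values were seen, was listed at 0 in control and GN and reached 2.09 CPM in EV- replicate 1. B cell transcripts took no common direction in that library. It was the highest of the 10 libraries for none of the 6 genes, with *Ms4a1* at 0.778 CPM, *Blk* at 0.486 CPM and *Cr2* at 0.0972 CPM, but it was the highest for 3 of the 14 other B cell genes, all named after their values were seen. These were *Cd24*, *Fcmr*, an Fc receptor for IgM, at 5.15 CPM against at most 2.45 CPM elsewhere, and *Pou2af1*, a B cell transcriptional coactivator, at 3.55 CPM against at most 1.88 CPM elsewhere.

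In EV+ against EV- limma called none of the genes in the table from the lists for plasmacytoid dendritic cells (9), conventional dendritic cells (10), neutrophils (8), macrophages (16), follicular dendritic and stromal cells (2) and erythroid cells (2). At an unadjusted p under 0.05 there were 1, 2, 1, 3, 0 and 0, in the same order. The likelihood-ratio test called *Lag3* of the first list and *Mmp9* of the neutrophil list, DESeq2 called *Lag3*, and the quasi-likelihood test called none. Both genes, named because of these calls, had their highest value in EV- replicate 1, at 8.89 and 4.76 CPM. The most abundant genes of the lists had log2 differences close to 0, as for *Irf7* (0.12), *Cd4* (0.09), *Irf8* (-0.01) and *Runx2* (-0.12) of plasmacytoid dendritic cells. The same held for *Sirpa* (0.06), *Cd1d1* (0.03), *Cadm1* (0.16) and *Zbtb46* (0.10) of conventional dendritic cells, for *Csf3r* (0.04), *S100a9* (0.28), *Camp* (-0.01) and *S100a8* (0.07) of neutrophils, and for *Lyz2* (0.00), *Csf1r* (0.08), *Cd68* (0.06) and *Adgre1* (0.10) of macrophages, each with a limma adjusted p of 1.0. *Pdgfrb* (0.28) and *Col3a1* (-0.09) of stromal cells and *Hbb* (-0.20) and *Hba1* (-0.15) of erythroid cells gave the same adjusted p. In bulk libraries these levels cannot be assigned to a cell type, so the content of other cells was not compared. Scarcer conventional dendritic cell genes, named after their values were seen, went both ways on 0 to 118 reads. Their EV+ to EV- ratios of means were 7.68 for *Clec9a*, 2.32 for *Ccr7*, 0.398 for *Itgae* and 0.382 for *Flt3*.

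**Figure D3:**
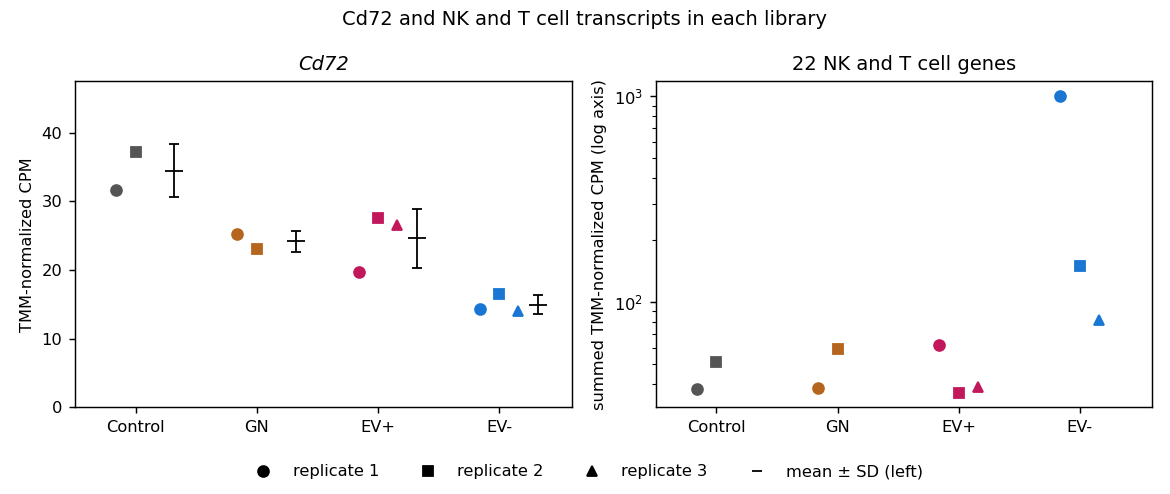
TMM-normalized CPM of *Cd72* (left, linear axis from 0) and the summed TMM-normalized CPM of 22 NK and T cell genes (right, log axis) in each library, by group. Symbols give the replicate number and bars in the left panel the group mean ± SD. *Cd72* was at most 16.5 CPM in EV- and at least 19.7 CPM elsewhere, and the NK and T cell sum was at 82 to 1005 CPM in EV- and at most 62 CPM elsewhere.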

How the data were processed

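RNA of 10 libraries was prepared with SMART-Seq v4 and Nextera XT. Per the labels and the study's methods, the authors aligned paired-end reads to rn6 with STAR (2.5.3), counted RefSeq genes with HTSeq (0.6.0), removed genes under 1 CPM in every library and deposited TMM-normalized CPM, a normalized signal. The smallest row maximum was 1.01 CPM, and 18 symbols had turned into dates. The table holds symbols only, so no coordinates are given. All values (100%) were whole reads within 0.05, and libraries totalled 19270515 to 26617093 reads. Replicates differed by a chi-square of 13.4 to 45 per degree of freedom, so none was a copy.

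Groups came from the labels. limma (3.58.1, R 4.3.3) was fitted to log2(CPM + 1) with an intensity trend, 4 groups, 6 residual degrees of freedom and no replicate block, and called genes at an adjusted p under 0.1 over 9003 genes. edgeR (4.0.16) and DESeq2 (1.42.0) were run on recovered reads as alternatives, with the others given under the dependence on processing. Deviations of same-numbered EV+ and EV- libraries correlated at 0.203, 0.295 and 0.122, so the numbers were taken to pair them, from the data only. Control and GN gave 0.0878 for like numbers and -0.0878 for unlike ones, mirror values that 2 libraries per group force. The replicate block used the same numbers across all 4 groups. It therefore also joined control and GN libraries with EV+ and EV- libraries of their number. The SE, 95% intervals and limma p-values printed for single genes in EV+ against EV- are from fits without the block, so they do not use the pairing. With the block the limma difference stayed at 0.70 for *Blk* (adjusted p = 0.841) and at 0.76 for *Cr2* (adjusted p = 0.937). Replicates are biological per the methods.

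Named genes were the 6 members, list genes called in EV+ against EV-, up to 8 further B cell genes and 4 of each other list by mean level, and the 8 most alike genes. Not every listed gene is reported here. Members and lists were chosen with earlier results of these data known. The fits were tested on simulated data.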

Additional observations from a re-analysis of the deposited data

How the results depend on the processing

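In EV+ against EV- none of the 6 genes was called under any alternative, namely edgeR's quasi-likelihood and likelihood-ratio tests, DESeq2, limma without trend, RLE size factors, a pseudocount of 0.1, a filter keeping genes that reach 1 CPM in 2 or more libraries, an adjusted p under 0.05, the replicate block, only the groups compared, and each library left out. In GN against control 1 was called, *Cd79b*. The likelihood-ratio test and DESeq2 called 2, and limma without trend and the fit of only these groups called 0. With libraries left out the count ran from 0 (without control replicate 2 or GN replicate 1) to 2 (without EV+ replicate 2). The replicate block gave 0 and 1 calls in these comparisons and 0 in the other two. It changed no call of the 6 genes, and of the list counts printed above it moved only the receptor signalling genes in GN against control, from 1 to 2. Those were also 2 in the likelihood-ratio test, DESeq2 and the fit of only these groups, and 0 to 2 with libraries left out (0 without control replicate 1 or GN replicate 1). Other B cell genes called in EV+ against EV- numbered 1 in the likelihood-ratio test and 1 in DESeq2, and in GN against control 1 in DESeq2. Of NK and T cell genes in EV+ against EV-, the likelihood-ratio test called 11, DESeq2 10, and limma 0 to 3 with libraries left out (3 without EV- replicate 3). The likelihood-ratio test called 1 plasma cell, 1 plasmacytoid dendritic cell and 1 neutrophil gene, and DESeq2 1 plasmacytoid dendritic cell gene.

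Small differences, none of them called, changed sign. With a pseudocount of 0.1 these were *Ms4a1* (-0.02) and *Cr2* (-0.04) in EV- against GN and *Cr2* in GN against control (0.20). With the replicate block they were *Cr2* (-0.21) and *Bank1* (-0.00) in EV- against GN, and with RLE size factors *Cd79b* in EV+ against EV- (0.00). With libraries left out, *Ms4a1* in EV- against GN ran from -0.06 to 0.25 and *Cr2* from -0.16 to 0.32, *Cr2* in GN against control from -0.59 to 0.43 and *Blk* from -0.05 to 0.30. *Blk* in EV+ against GN ran from -0.16 to 0.19. *Cd22* ran from -0.04 to 0.19 in EV+ against EV-, from -0.23 to 0.01 in GN against control and from -0.04 to 0.21 in EV- against GN, and *Cd79b* in EV+ against EV- from -0.07 to 0.04. The causes were not tested. *Ms4a1*, *Cr2* and *Blk* rested on 1 to 70 reads per library, and the part of counting error in their spread was not tested.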
